A study of Mus musculus with 6 samples.

Results

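The regions described here stood in runs along the mouse genome: segments of brain RNA enriched by an antibody against N6-methyladenosine (m6A) in every library, with at least 3 of them in a row and no gap between neighbours longer than 1000 bases. Peaks of the 3 deposited lists that shared at least 1 base were merged, which gave 42135 regions on the 19 autosomes. A peak of each list was present in 16348 of these, called recurrent regions here. Of the recurrent regions, 2416 (14.8%, Wilson 95% interval 14.2 to 15.3) lay in 699 chains of 3 or more. These counts depend on the lists and thresholds far beyond the counting interval: without m6A IP 3 there were 4411 members in 1244 chains, and with peaks of at least a fold of 4 only, 486 in 148. Another 3602 lay in 1801 chains of 2, and 10330 had no recurrent neighbour within 1000 bases. Because peak positions chose the members, the positions, heights and folds below are a description, given per library, and no difference was tested.

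The RNA was the polyadenylated fraction of whole mouse brain. An m6A antibody was used for 3 libraries (m6A IP 1, 2 and 3), and 3 inputs were made with no antibody. The sources used here give no strain, age, genotype or treatment. They do not say whether replicates are different animals either, and the spread between replicates may be technical. The series concerns oligodendrocyte maturation, but whole brain mixes all its cell types, and an enriched segment cannot be assigned to one of them. After the authors' removal of duplicates the IP libraries held 5676427, 6493926 and 6327958 tags and the inputs 7436658, 11589632 and 7185922. Every position is 1-based on build mm9, counted along the plus strand of the chromosome. The lists carried neither strand nor gene names, so "first" and "last" in a chain follow the chromosome and not the transcript, and genes, exons and sequences at these positions are not reported.

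As background, m6A is a methyl group on adenosines inside messenger RNA, placed mainly in the nucleus by a complex whose catalytic subunit is METTL3, with METTL14 as its RNA-binding partner. It is removed by the demethylases FTO and ALKBH5 and read by YTH-domain proteins that act on splicing, translation and decay. The mark is known to gather in long internal exons and around stop codons, often with several methylated adenosines close together. In m6A-seq the RNA is broken into fragments before the antibody is added, so a peak marks a fragment-sized stretch around 1 or more methylated bases. The summit is the base of the peak covered by most tags, and the pileup is that number of tags.

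Most chains were short. Of the 699 chains, 493 (70.5%) held 3 regions, 138 (19.7%) held 4 and 48 (6.87%) held 5. The remaining 20 chains held between 6 and 11 regions. Chains of 5 or more numbered 68 and held 385 of the 2416 members (15.9%). A chain spanned a median of 1539 bases (quartiles 1166 and 1931), from 452 bases for the most compact to 6886 bases for the longest. The median span was 1353 bases for chains of 3, 1944 for chains of 4 and 2414 for chains of 5. Members covered a median of 56.0% of the span of their chain (quartiles 44.5 and 68.2%), so gaps between regions made up a little less of a typical chain than the regions themselves. In all, the chains spanned 1151 kb, of which 631 kb lay inside members.

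**Figure D1:**
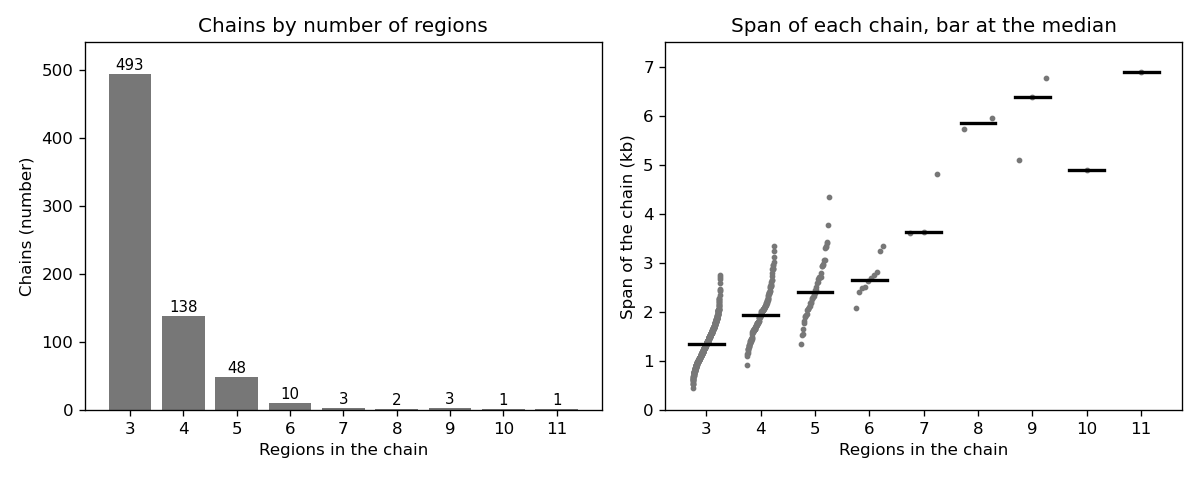
Left, the number of chains (bars, from 0) by the number of recurrent regions they hold. Right, the span of each chain in kb (points) by the same number, with a bar at the median. Chains of 3 number 493 and have a median span of 1353 bases, and the only chain of 11 spans 6886 bases.

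Chains occurred on every autosome. The share of recurrent regions that stood in a chain averaged 14.6% ± 2.39 (SD over 19 autosomes). It was highest on chromosome 3, at 19.9% of 769 regions (Wilson 95% interval 17.2 to 22.9), and next on chromosome 15, at 17.9% of 722 (15.2 to 20.8). It was lowest on chromosome 1, at 11.1% of 968 regions (9.23 to 13.2). The intervals cover counting error only and treat regions as independent, which members of 1 chain are not. By number, chromosome 2 had the most chains, 63, followed by chromosomes 7 and 11 with 61 each. A chain was usually isolated: the nearest other recurrent region lay a median of 15471 bases away, and 77 chains had one within 2000 bases.

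The limit of 1000 bases does not sit at a break in the data. Among all neighbouring recurrent regions, 1865 gaps were of 250 bases or less, 879 of 251 to 500, 477 of 501 to 750 and 297 of 751 to 1000. Beyond the limit the numbers went on falling, to 203 gaps in the next 250 bases and 117 of 1751 to 2000. Just inside it, a chain of 4 on chromosome 7 from 135024283 to 135027401 had a gap of 996 bases between its first and second regions. The pileups at the edges of that gap were 26, 27 and 29 tags and 22, 22 and 19 tags in m6A IP 1, 2 and 3. The next gap, of 995 bases, was in a chain of 4 on chromosome 11 from 107593780 to 107595866. A gap of 994 bases was in a chain of 5 on chromosome 17 from 25025823 to 25029175. Just outside it, a gap of 1002 bases on chromosome 10 separated the regions from 77362629 to 77362718 and from 77363721 to 77364039. Their pileups were 16, 15 and 17 tags and 24, 19 and 21 tags, so regions on either side of the limit had heights of the same order. A pair on chromosome 6 from 117126476 to 117127969 and another on chromosome 11, which began at 31771260 and ended at 31772817, were 1003 bases apart.

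Neighbouring summits in a chain typically lay about 500 bases apart. Over the 1717 pairs of neighbours the median spacing was 518, 519 and 516 bases in m6A IP 1, 2 and 3, a mean of 518 ± 1.53 (SD, n = 3). The lower quartile was 348 ± 5 bases and the upper quartile 734 ± 2.08. Spacings of 301 to 400 bases were the most frequent 100-base class, with 16.4% ± 1.08 of pairs, ahead of 501 to 600 bases with 13.7% ± 0.793, 401 to 500 bases with 13.6% ± 1.26 and 201 to 300 bases with 13.5% ± 0.702. Few pairs, 3.84% ± 0.556, were within 200 bases, and 2.60% ± 0.0673 were over 1200 bases apart. Both tails are bounded by construction, the long one by the limit on gaps and the short one by the peak caller: no gap between 2 peaks of a list was shorter than 51 bases, and in the separate lists the gap between the peaks of neighbouring members had a median of 264, 266 and 302 bases. Spacing changed little with chain length, with medians of 508 ± 2.18 bases in chains of 3, 536 ± 4.75 in chains of 4 and 526 ± 11.7 in chains of 5 or more.

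**Figure D2:**
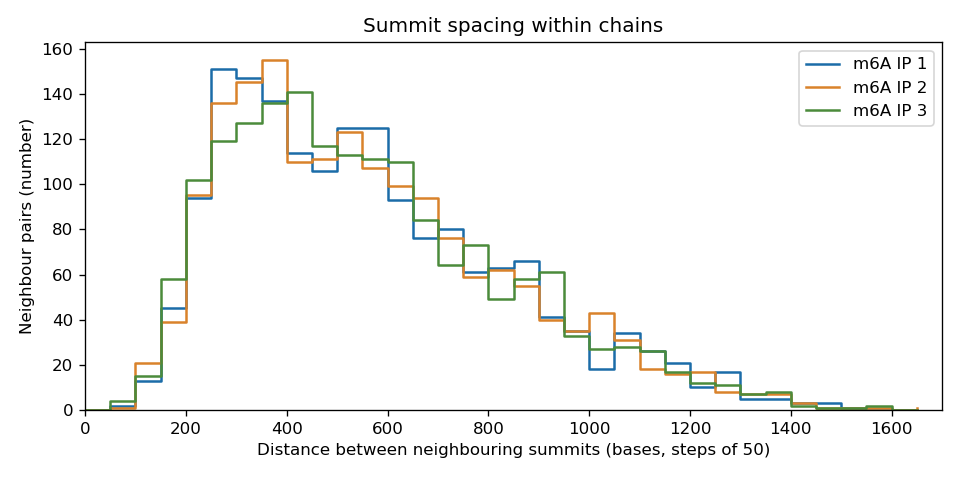
Number of neighbour pairs (vertical axis) by the distance between their summits in bases, in steps of 50 bases, with 1 line for each m6A IP library. The lines run together, with medians of 518, 519 and 516 bases and longest spacings of 1512, 1664 and 1577 bases.

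The spacing of a given pair varied by 100 bases or less over the libraries in most cases, and by up to 760 bases. Its range over the 3 libraries had a median of 65 bases (quartiles 28 and 125), against the spacing itself of about 518. It was within 50 bases for 725 pairs (42.2%, Wilson 95% interval 39.9 to 44.6) and within 100 bases for 1154 (67.2%, 65.0 to 69.4). Across pairs, Spearman's rho of the spacing was 0.938 for m6A IP 1 and 2, 0.930 for 1 and 3 and 0.930 for 2 and 3. Pairs share regions and the merging joined the peaks of the 3 libraries at the start, so these values describe agreement and carry no p. Within a chain the spacing was uneven: in chains of 3, the longer spacing was a median of 1.58 times the shorter.

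Summits of the same member lay close together in the 3 libraries, but less so than in regions without neighbours. The range of the summit over the libraries had a median of 27 bases in members (quartiles 10 and 74), 25 in chains of 2 and 20 in lone regions (quartiles 7 and 57). It was within 25 bases for 1171 members (48.5%, Wilson 95% interval 46.5 to 50.5), against 50.4% of regions in chains of 2 and 56.0% of lone regions (55.0 to 57.0). Between single libraries the median distance was 12 bases for m6A IP 1 and 2, 14 for 1 and 3 and 13 for 2 and 3, and the summit fell on the very same base in 7.45, 8.07 and 7.16% of members.

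The number of peaks inside a region moved with this agreement. In 456 members (18.9%) at least 1 library had more than 1 peak, against 11.8% of lone regions. The summit range of those members had a median of 70.5 bases and exceeded 100 bases in 190 of them (41.7%). In the 1960 members with a single peak in each library the median was 24 bases, and the range exceeded 100 bases in 217 (11.1%). A region's summit is that of its highest peak, so with several peaks it can move from peak to peak. Part of the wider range follows from this definition. Lone regions with a single peak in each library had a median of 19 bases. Height moved with it as well: the median range fell from 37 bases in the 267 members with a mean pileup of up to 15 tags to 20 bases in the 446 members above 35 tags. At each height the lone regions were tighter, with 30 bases at up to 15 tags and 15 bases above 35 tags. Members were longer, with a median region length of 218 bases against 172, and the part of length in the difference was not tested.

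**Figure D3:**
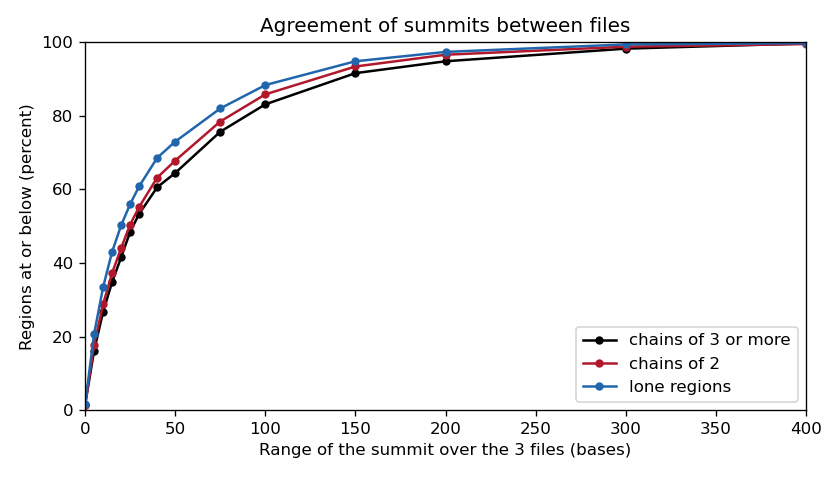
Percent of regions (vertical axis) whose summits in the 3 libraries lie within the number of bases on the horizontal axis, for members of chains of 3 or more, for regions in chains of 2 and for lone regions. From 5 to 300 bases the line of the chains of 3 or more lies lowest, with 48.5% of members and 56.0% of lone regions within 25 bases.

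Members stood slightly higher than lone regions, over more input. In m6A IP 1, 2 and 3 the median member had 26, 27 and 25 tags at its summit. Lone regions had 24, 24 and 21, and regions in chains of 2 had 26, 26 and 24. The single lowest member pileup was 4 tags and the highest 87. The local input background, recovered from the deposited pileup and fold, had a median of 4.58, 5.04 and 4.45 tags in members and 3.05, 3.64 and 3.52 in lone regions, so members were higher in each library. The fold enrichment, the authors' ratio of pileup to background with 1 added to both, was lower in each: 4.93, 4.67 and 4.35 in members and 5.21, 5.13 and 4.71 in lone regions. A fold of at least 4 in each library was reached by 1054 members (43.6%) and by 47.6% of all recurrent regions. A −log10 q of at least 10 in each library was reached by 285 members (11.8%) and by 12.2% of all recurrent regions. The members were chosen from these same peaks, so nothing is read from these shares. All members of a chain reached that q in 4 chains (0.572%), and none did in 469 (67.1%). The fold of at least 4 was reached by all members in 90 chains (12.9%) and by none in 184 (26.3%). These counts follow in part from the shares of members above, and sharing within chains was not tested.

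In most chains the mean heights differed by less than 2 times. The highest region of a chain stood a median of 1.43 times above the lowest in mean pileup (quartiles 1.253 and 1.72), and the greatest ratio was 3.69. Per library the median ratio was 1.48 ± 0.0321 (SD, n = 3). It was larger in longer chains, which have more regions to choose the extremes from: 1.44 ± 0.0228 in chains of 3, 1.51 ± 0.0308 in chains of 4 and 1.71 ± 0.0141 in chains of 5 or more. In 93 chains (13.3%) the ratio was at least 2. Of the variance of log2 pileup over all members, 72.1% ± 1.30 (SD, n = 3) lay between chains, against 79.3% ± 0.499 for the log2 background and 54.6% ± 2.25 for the log2 fold. Groups this small place part of the variance between them even where regions are unrelated. That part, and the ratio for unrelated regions, were not computed. Neighbours share input windows of 1000 and 10000 bases in the peak caller's background, so their backgrounds are not independent.

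The highest region was found at every place along the chain. In the 485 chains of 3 with a single highest region, it was the first in 157 (32.4%, Wilson 95% interval 28.4 to 36.7), the middle one in 164 (33.8%, 29.7 to 38.1) and the last in 164 (33.8%). The mean pileup at the 3 places was 25.9 ± 1.34, 26.5 ± 1.21 and 25.9 ± 1.16 tags (SD over 3 libraries). The middle place had the highest mean in each library, by less than 1 tag, a difference that was not tested. In chains of 4 the highest region was at the 4 places in 30, 28, 39 and 37 of 134 chains, and the mean pileups were 25.9 ± 1.08, 27.2 ± 0.987, 28.0 ± 1.21 and 26.8 ± 1.15 tags. In each library the first place had the lowest mean of the 4 and the third the highest, also untested. In chains of 5 it was at the 5 places in 11, 10, 7, 11 and 7 of 46. Since strand is unknown, chains read in either direction of transcription are mixed in these counts, and a gradient along the transcript could not be seen in them.

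Few chains had a steady gradient in all 3 libraries. The pileup rose at every step in all 3 libraries in 36 chains (5.15%) and fell at every step in 31 (4.43%). All but 1 of these were chains of 3. Such a gradient needs the same order in each library, which 136 of 493 chains of 3 had. Of these 136 chains, 35 rose and 31 fell at every step. Among the possible orders of 3 regions, 1 in 3 rises or falls at every step. The difference from that share was not tested. In single libraries the pileup rose at every step in 102, 90 and 100 chains and fell in 89, 83 and 80. Most such runs of a single library were thus not repeated in both others. The exception among longer chains had 4 regions on chromosome 4 from 125385342 to 125386992. Its pileups in m6A IP 1, 2 and 3 were 25, 24 and 19 tags in the first region, 26, 25 and 28 in the second, 31, 34 and 30 in the third and 36, 35 and 32 in the last. Each step was upward in each library, but the first in m6A IP 1 and in m6A IP 2 was of a single tag. The mean pileup was 1.51 times higher in the last region than in the first.

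The highest region was the same in all 3 libraries in 360 chains (51.5%, Wilson 95% interval 47.8 to 55.2). In 159 chains (22.7%) a library had a tie for the highest, and 456 chains (65.2%) had a region that was highest or tied for highest in every library. The lowest region was the same in 328 chains (46.9%). Longer chains gave lower agreement on the highest region. It was 54.0% in chains of 3, 47.8% in chains of 4 and 41.2% in chains of 5 or more. Longer chains have more regions among which the highest can differ, and the part of this was not tested. The full order of heights, without ties, was the same in 147 chains (21.0%, 18.2 to 24.2), of which 136 were chains of 3, 10 chains of 4 and 1 a chain of more. Counted by pairs of regions within a chain, 2124 of 3264 (65.1%) were ordered alike in every library.

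Agreement on the order followed the size of the differences. The 171 chains with the smallest ratio of highest to lowest mean pileup had the same highest region in 38 cases (22.2%, Wilson 95% interval 16.6 to 29.0). Those with a ratio of 2 to 3 had it in 67 of 81 (82.7%, 73.1 to 89.4), and those above in 11 of 12 (91.7%, 64.6 to 98.5). From one neighbour to the next the mean pileup changed by a median of 4.67 tags. A mean step of under 2 tags had the same direction in each library in 21 of 379 pairs (5.54%), and a step of 2 to 5 tags in 262 of 510 (51.4%, 47.0 to 55.7). Of steps of 5 to 10 tags 488 of 506 agreed (96.4%, 94.4 to 97.7), and so did all 322 larger ones. The mean step is made from the same 3 libraries, so part of this rise follows from the definition. A count of 25 tags, near the median member, has a 95% exact Poisson interval of 16.2 to 36.9, wider than most of these steps. It is the interval of a single count, and the agreement over 3 libraries is not judged by it.

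**Figure D4:**
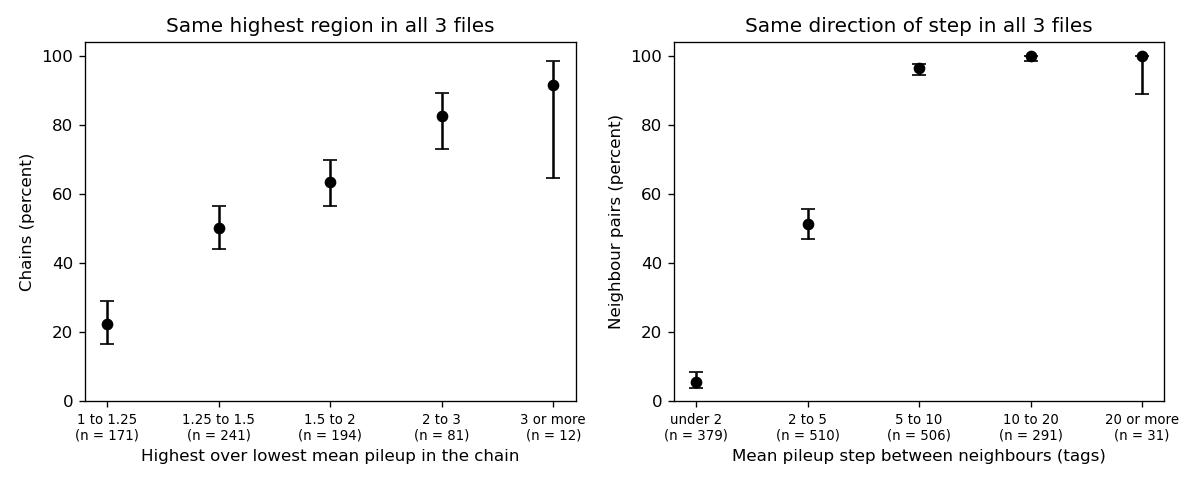
Left, percent of chains with the same highest region in all 3 libraries, by the ratio of the highest to the lowest mean pileup of the chain. Right, percent of neighbour pairs whose pileup changes in the same direction in all 3 libraries, by the mean step in tags. Points carry Wilson 95% intervals, and agreement goes from 22.2 to 91.7% on the left and from 5.54 to 100% on the right.

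Height kept its order between libraries better than fold did. With the chain mean of each log2 value subtracted, Spearman's rho over the 2416 members was 0.793, 0.795 and 0.780 for pileup in the pairs m6A IP 1 and 2, 1 and 3, and 2 and 3. It was 0.464, 0.409 and 0.437 for fold and 0.514, 0.490 and 0.534 for the background. Within a library the centred pileup was related to both, with a mean rho of 0.319 ± 0.0563 (SD, n = 3) to fold and 0.376 ± 0.0651 to background. The region of highest pileup also had the highest fold in 341 chains (48.8%), the highest background in 326 (46.6%), both in 79 and neither in 111. Members of a chain share tags in their background windows and the fold contains the other 2 values, so these are descriptions with no p.

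Most gaps inside chains were empty of further peaks. Of the 1717 gaps, 283 (16.5%, Wilson 95% interval 14.8 to 18.3) held a peak of 1 or 2 libraries only, 130 of them a region found in 2 libraries. These were the wider gaps, with a median of 532 bases against 187 for the gaps without a peak. The share was 0 of 397 gaps of up to 100 bases, 13 of 377 (3.45%) at 101 to 200 bases and 75 of 155 (48.4%) at 701 to 1000 bases. Narrow gaps have little room for a peak, so this rise is in part fixed in advance. No library had less than 50 bases of peak in a recurrent region, and peaks of a list were at least 51 bases apart. The 3 libraries in turn had peaks in 183, 178 and 72 gaps, and m6A IP 3, with the fewest, is also the shortest list. At least 1 such gap was present in 248 chains (35.5%).

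The boundaries of peaks inside members were not drawn alike in each library. In 442 members (18.3%) the number of peaks differed between libraries. Members with more than 1 peak numbered 188, 157 and 306 in the 3 libraries in turn, and no member had more than 4 peaks of a library. A stretch called as 1 peak in a library was thus called as several in another, most often in m6A IP 3, whose peaks in members were also shortest, with a median of 143 bases of peak per member against 183 and 182. Gaps of 50 bases or less, no longer than a tag, separated 77 pairs of members (4.48%).

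The chain with most regions held 11 on chromosome 10 from 79773842 to 79780727, with members over 72.2% of its 6886 bases. Its summits were a mean of 651 bases apart. The seventh region, from 79778342 to 79778880, was the highest, with pileups of 44, 47 and 46 tags in m6A IP 1, 2 and 3 and summits within 1 base of each other. The sixth, from 79777719 to 79777959, was the lowest, with 29, 30 and 26 tags, and the ninth and the third came next at means of 29.3 ± 1.15 and 29 ± 3.61 tags (SD, n = 3). High and low regions were interspersed: the second (40.7 ± 3.79), the fourth (42.0 ± 2.65), seventh (45.7 ± 1.53), eighth (41.3 ± 3.79) and last (39.7 ± 2.31) stood at about 40 tags or more, and the third, the sixth, the ninth and the tenth at about 30 or less. In m6A IP 1 the fourth and the seventh tied at 44 tags. Of the 55 pairs of regions, 37 were ordered alike in every library. The second and the fourth members were the widest, 921 and 1114 bases, and the fourth was called as 2, 1 and 3 peaks in the 3 libraries in turn.

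Most spacings in this chain were repeated closely. From the first to the second summit the distance was 868, 861 and 863 bases in m6A IP 1, 2 and 3, from the tenth to the last 775, 777 and 782, and from the second to the third 694, 690 and 694. From the fifth to the sixth it was 481, 288 and 378 bases, as the summit of the sixth moved by 174 bases between libraries.

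The chain of 10 on chromosome 4 from 141027504 to 141032401 was lower and sparser. Members covered 47.0% of 4898 bases, and the mean pileups ran from 16.7 ± 1.15 to 28.0 ± 2.65 tags. The highest mean was shared by the third region, with 26, 31 and 27 tags in m6A IP 1, 2 and 3, and the fifth, with 30, 28 and 26. The fourth, between them, was the lowest, with 16, 16 and 18 tags in a 96-base region, below both neighbours in each library. The last 2 regions were also low, at 18.3 ± 2.52 and 18.7 ± 1.15 tags. The pileup of m6A IP 1 stayed at 28 to 31 tags from the fifth to the eighth region, while in m6A IP 2 and 3 the seventh dipped to 21 and 19 tags. The summit of that seventh region moved by 312 bases between libraries.

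The chain of 9 on chromosome 2 from 121125984 to 121132761 was nearly level after its first region. That region, from 121125984 to 121126588, stood above the rest with 63, 68 and 55 tags. The other 8 lay between 40 and 50 tags in every library, and the eighth had 49 tags in each. With tags of 50 bases and at most 1 kept per position, a strand can hold no more than 50 tags over a base. Both strands together can hold 100, and the first region exceeded 50 in every library. The part of this limit in the level profile was not tested. Of the 36 pairs of regions, 13 were ordered alike in every library, and summits moved by up to 282 bases between libraries. Its mean folds were 2.03 to 2.66 over backgrounds of 18.1 to 23.8 tags.

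A downward slope with breaks marked the 9 regions on chromosome 15 from 76005927 to 76012314. Members covered 83.2% of the 6388 bases. The first region was the highest, with 45, 41 and 39 tags in m6A IP 1, 2 and 3, and the last but 2, from 76010073 to 76010160, was the lowest, with 16, 19 and 13. These values do not overlap, but both regions were picked as highest and lowest by the same values. The ratio of the means was 2.60. Between them the second to sixth regions had between 22 and 35 tags in any library, and the last had 23.0 ± 4.58. In this chain 30 of 36 pairs of regions kept their order in every library. The highest mean fold, 8.32, was in the sixth region, which had a background of 2.7 tags, and the first region had a fold of 7.29 over 5.0 tags.

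**Figure D5:**
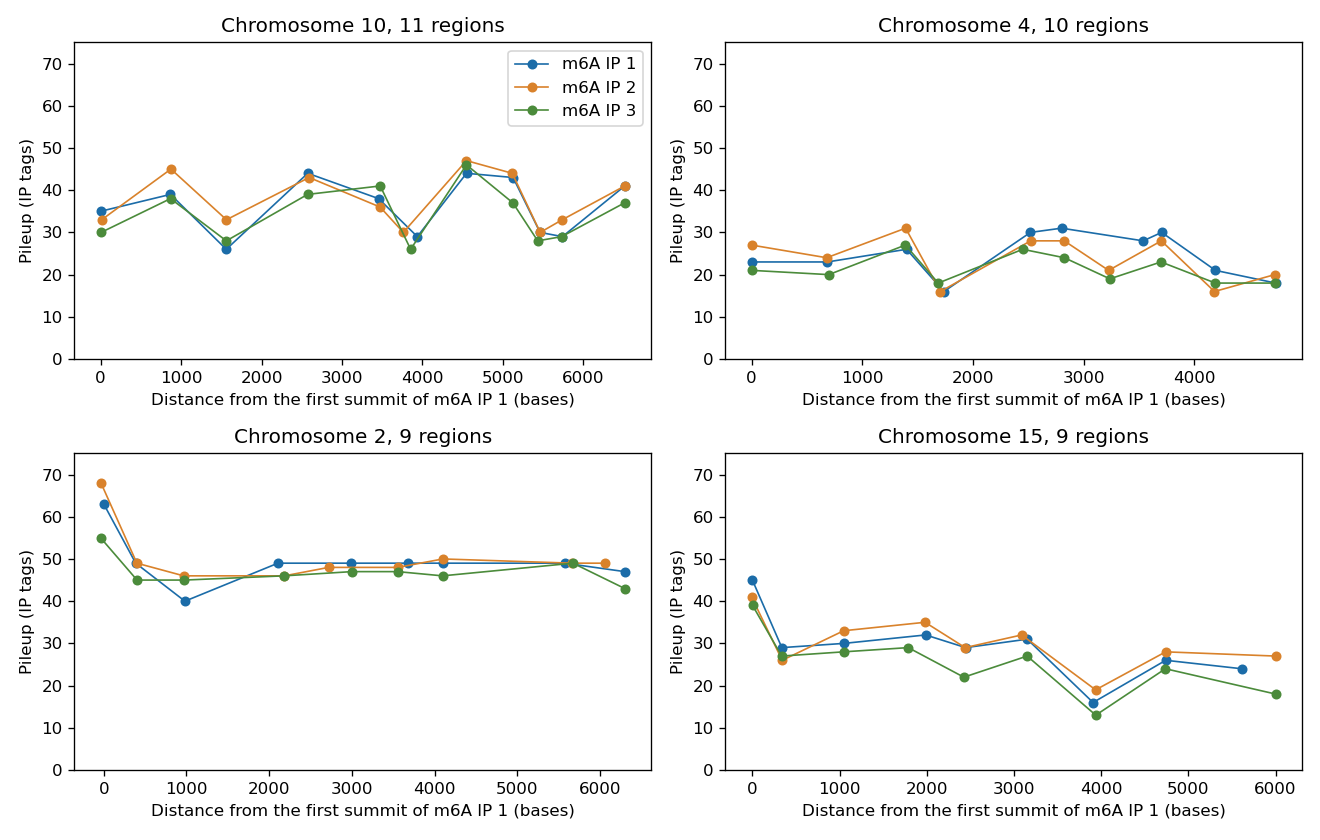
Pileup in IP tags (vertical axis) at the summit of each region, by distance in bases from the first summit of m6A IP 1, for the 4 chains with most regions, with 1 line per library. The lines of the chromosome 10 chain rise and fall together, and 8 of the 9 regions on chromosome 2 sit between 40 and 50 tags.

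On chromosome 11, 9 regions from 59999054 to 60004149 rose to the third and the fourth and fell to the sixth and seventh. The third had 37, 36 and 35 tags and the fourth 37, 42 and 34, while the sixth had 20, 23 and 18 and the seventh 23, 20 and 19. Both low regions were below both high ones in every library, and they were also the shortest, at 93 and 99 bases. Order was kept in 30 of 36 pairs of regions.

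The 8 regions on chromosome 8 from 125414008 to 125419974 had almost no order. Their mean pileups ran only from 34.0 ± 3.61 to 38.7 ± 2.52 tags, a ratio of 1.14, and 3 of 28 pairs of regions were ordered alike in each library. By contrast, the 8 regions on chromosome 9 from 108012474 to 108018214, with a ratio of 1.47, kept the order of 23 of 28 pairs. The first had the highest mean there, with 46, 44 and 42 tags, but its summit moved by 606 bases, so the distance to the second region was 1315, 707 and 1304 bases.

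Of the 3 chains of 7, the one on chromosome 14 from 84843630 to 84848438 had a single tall region. This was the third, with 41, 46 and 36 tags, against 18 to 32 tags in any library for the other 6. It was 2.08 times as high as the fourth, the lowest, and the summits of the third lay within 3 bases of each other. In the chain on chromosome 5 from 58109014 to 58112617 the third region was also highest in each library, with 38, 31 and 34 tags, and the fifth lowest, with 18, 18 and 17. On chromosome 1 from 34643561 to 34647188, the sixth region led in m6A IP 1 and 3, with 39 and 35 tags, and the third in m6A IP 2, also with 39 tags. Spacings in that chain began at 290 to 474 bases and widened to 878 to 926 before the sixth region.

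The steepest chains of 4 or more held regions of very unequal height. On chromosome 13 from 29042506 to 29045310, the second of 5 regions had 42, 42 and 40 tags and the third, 638, 692 and 657 bases on, had 10, 12 and 12, a ratio of mean pileups of 3.65. The counting intervals of the pair did not meet: 28.6 is the lower bound of the 40 tags, and 21.0 the upper bound of the 12. The chain was named for its large ratio and the pair is its highest and lowest region. The separation thus follows from the choice, and nothing is read from it. On chromosome 3 from 62142392 to 62144432, the second of 5 had 31, 36 and 38 tags and a mean fold of 15.6, and the first had 11, 10 and 9 tags, a ratio of 3.50. The chain on chromosome 17 from 25025823 to 25029175 climbed from a second region of 18, 20 and 12 tags to the fourth, of 58, 58 and 51. Its background rose as well, from 3.2 to 13.8 tags, and the fold was 4.24 in the second and 3.88 in the fourth.

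Background also moved with height in the 2 next steepest chains. On chromosome 9 from 21047848 to 21049389, the second of 4 regions had 35, 36 and 31 tags over a background of 6.0, and the last had 13, 9 and 11 over 1.7. On chromosome 10 from 111707172 to 111709433, pileup was 13, 9 and 11 tags in the second region and 35, 34 and 32 in the last, over 1.1 and 6.5 tags of background, and all 6 pairs of regions were ordered alike in every library. The mean folds in these 2 chains ran from 4.56 to 5.96 and from 5.02 to 6.41. The part of RNA level in the height differences was not tested.

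In the most level chains of 4 or more, libraries did not rank the regions alike. These chains were chosen for near-equal mean pileups, so weak agreement on order follows largely from the choice. The 4 regions on chromosome 17 from 87054001 to 87055375 had mean pileups of 43.7 to 46.0 tags, a ratio of 1.05, and 1 of 6 pairs was ordered alike in each library. Next came chromosome 11 from 117582353 to 117584772 (ratio 1.08, 26 to 35 tags in any library), chromosome 1 from 174299184 to 174302135 (1.11, 36 to 45 tags in any library) and a chain of chromosome 17 from 26127085 to 26128740 (1.11, 27 to 37 tags in any library). Each of these also had 1 of 6 pairs ordered alike. On chromosome 5 from 107936033 to 107938104 the ratio was 1.11 and 3 of 6 pairs were ordered alike. Some of these differences are smaller than the SD of a single region between libraries, which reached 4.93 tags in the first region on chromosome 11.

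In most of the 5 most evenly spaced chains heights differed less than in the median chain of 4, while folds could be unequal. The most even chain of 4 or more lay on chromosome 3 from 45182384 to 45185413, with spacings averaging 884 bases and a coefficient of variation of 2.8% of their means over libraries. Its 3 spacings were 986, 835 and 805 bases in m6A IP 1, 874, 910 and 899 in m6A IP 2, and 873, 894 and 884 in m6A IP 3, so m6A IP 1 was the least even. Its fold ran from 2.72 in the third region to 6.37 in the first, while pileups were 33 to 44 tags. The chain of 4 that rose without a break on chromosome 4 was among the 5 most even, with a mean spacing of 323 bases and a coefficient of variation of 9.3%. The other 3 lay on chromosome 3 from 104806747 to 104808897 (mean spacing 636 bases), chromosome 12 from 77428717 to 77431367 (779 bases) and chromosome 13 from 78337448 to 78339536 (664 bases). The ratio of highest to lowest mean pileup was 1.23 in the most even chain and 1.26, 1.29 and 1.29 in these 3. It was 1.51 in the rising chain, and the median over chains of 4 was 1.45.

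A few chains had a copy elsewhere. For 17 members (0.704%) another recurrent region had the same length, the same peak lengths and the same pileups in all 3 libraries, and these members lay in 9 chains. The 3 regions on chromosome 12 from 84314769 to 84316159 and the 3 from 84583841 to 84585231 matched throughout: 19, 15 and 14 tags in the first, 15, 14 and 10 in the second and 17, 15 and 11 in the last, at equal lengths of 71, 139 and 446 bases. On chromosome 3, 4 regions from 96042418 to 96044140 and 4 from 96049537 to 96051267 had the same pileups in opposite order. In the first chain they were 26, 34 and 30 tags, then 38, 40 and 35, then 26, 23 and 19, then 21, 22 and 19. Whether the same reads were placed at both copies was not tested. Without the 9 chains the median spacing was 518 bases and 51.3% of chains had the same highest region in every library.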

How the data were processed

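Peaks were called by the authors with MACS 2.1.0.20151222, 1 IP against 1 input, at a q-value cutoff of 0.05, with tags of 50 bases and at most 1 tag kept per position, per the file headers. TopHat2 2.1.0, MACS2 2.1.0 and build mm9 are named in the submitters' processing notes. The pileup is a coverage signal in IP tags, deposited by the authors without scaling. The fold enrichment is the authors' deposited ratio, and the authors gave a −log10 q-value for each peak's strength, beside the −log10 of its p-value. Positions and lengths are as deposited. The annotation at hand is on GRCm38 and was not used, so the planned motif and gene positions were not computed.

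A region's summit, pileup and fold in a library were those of its peak of highest pileup. Background was (pileup + 1) / fold − 1. Chain means of log2 pileup, log2 fold and log2(background + 1) were subtracted for the centred correlations. Members, chains and lists were chosen with earlier results of these data known. Named chains were those with most regions (10), with the largest and smallest pileup ratio and the most even spacing among chains of 4 or more (5 each), those running in 1 direction, and those nearest the gap limit. The matching regions were sought after the values were seen. Intervals cover counting error only. No test across groups was made. Chaining was tested on simulated lists with a single peak per region in every library. Split peaks, missing peaks and gaps near the limit were not covered by them. Figures were drawn with matplotlib 3.10.9, and values computed with pandas 2.3.3, scipy 1.17.1 and numpy 2.4.6 in Python 3.11.15.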

Additional observations from a re-analysis of the deposited data

How the results depend on the processing

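The members and chains numbered 486 and 148 with a fold of at least 4, 560 and 170 with a −log10 q of at least 5, 1301 and 388 when peaks had to overlap reciprocally by 50%, 1497 and 439 with lists of equal length, and 5273 and 1461 when 2 libraries were enough. In the same order the share of recurrent regions in chains was 6.14, 6.89, 10.3, 11.5 and 20.4%. It was 10.1% with a gap limit of 500 bases and 18.8% with 2000. The median spacing was 571, 609, 534, 547 and 455 bases under the 5 settings named first, and 452 and 570 with the shorter and longer limit. The median summit range was 25, 21, 23, 24 and 26 bases under the 5, 26 with the limit of 500, and 29 when the peak of highest fold stood for a region. The same region was highest in each library in 47.1% of chains with the q threshold and 47.4% with the reciprocal overlap. The highest region lay at an end of 60.4% of chains with a single highest one, and of 64.8% with the fold threshold. By size these were 66.2% of chains of 3, where 2 of 3 places are ends, 50% of chains of 4, where 2 of 4 are, and 38.5% of longer chains. The median ratio of highest to lowest pileup was 1.48 with the fold threshold, 1.39 with the q threshold, 1.40 with the reciprocal overlap and 1.503 with 2 libraries. Ordered by fold in place of pileup, 32.5% of chains had the same highest region, 65.2% had it at an end, and the median ratio was 1.503. Leaving out each library in turn gave 3041 to 4411 members in 866 to 1244 chains, the most without m6A IP 3. The share was then 16.8 to 19.4%, the spacing 454 to 469 bases, the same highest region 61.9 to 65.8%, the highest at an end 59.1 to 60.7%, the ratio 1.46 to 1.5 and the summit range 12 to 13 bases. Agreement between 2 libraries is easier to reach than between 3. Of the 96 values under 13 alternatives, 39 stayed near the reported value, which for the counts of members and chains means within 1.5 times and for the other values within the spread or interval. The cause of the other changes was not tested. Of the 10 chains with most regions, those on chromosomes 2 and 8 kept 0 regions with a fold of at least 4 and that on chromosome 10 kept 2 of 11. No paired analysis was possible because the values come from no test: each list already sets 1 IP against 1 input, and the members were chosen from its peaks. With a median of 25 to 27 tags per member, a step of 5 tags is smaller than the counting interval of a single pileup. Mean steps of 5 to 10 tags still had the same direction in each library in 488 of 506 pairs, in part by definition. Without the 9 chains that have matching regions, an alternative added after the data were seen, there were 2384 members in 690 chains, and all 8 values stayed near the reported ones by the same rule.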

Other observations

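The X chromosome, left out of the regions above, held 409 regions with a peak of each list. Of these, 30 (7.33%, Wilson 95% interval 5.19 to 10.3) stood in 9 chains of 3 or more, against 14.8% of the autosomal ones. The interval treats regions as independent, which members of a chain are not, and the difference was not tested. There were 4 regions in 3 of the 9 chains, on X from 98515863 to 98517462, from 149932813 to 149934600 and from 163911941 to 163913021. Mean pileups ran from 28 to 43.3 tags in the first of them and from 18.7 to 29.7 in a chain of 3 from 61523768 to 61525483. The mean summit spacing had a median of 513 bases over the 9 chains, and 2 of them had the same highest region in every library. A pair of chains of 3, from 100209053 to 100210910 and from 100260704 to 100262560, had the same highest and lowest mean pileups, 37.7 and 32.3 tags, and spans of 1858 and 1857 bases.

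On chromosome 3, chains of 3 from 88619502 to 88621629 and from 88698312 to 88700477 began with regions of the same 25, 29 and 26 tags. Their last regions had 54, 55 and 56 tags and 54, 56 and 56. On chromosome 17, chains of 4 from 6232464 and from 6513094 met in the same way at opposite ends: the last 2 regions of one and the first 2 of the other shared pileups of 27, 26 and 25 tags and of 31, 35 and 39 tags.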
